A study of Mus musculus with 18 samples.

Results

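The 8 genes described here, Ppara, Cpt1a, Acadl, Acadm, Ehhadh, Pdk4, Angptl4 and Plin2, belong to the breakdown and storage of fatty acids and were chosen by their symbols from the 55487 genes of the count data. All 8 were among the 15247 genes that passed a filter on low counts. The data are RNA-sequencing counts from organoids, which are 3-dimensional cultures in which intestinal stem cells divide and differentiate. They were grown from the small intestine of wild-type female C57BL/6 mice. The cultures were treated for 4 days with 1 μM norepinephrine (5 libraries) or its HCl vehicle (4 libraries), or with 1 μM UK14304 (5 libraries) or its DMSO vehicle (4 libraries). Norepinephrine is the transmitter of sympathetic neurons and acts on α- and β-adrenergic receptors, and UK14304 is an agonist of the α2-adrenergic receptor. The labels number the libraries m1 to m5 within each group, with m5 in the 2 agonist groups only, and do not say what m stands for. It is called the replicate number below, and p-values measure only the spread between these libraries. Cultures of this kind hold epithelium without the nerves, stroma and gut content of the tissue.

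Long-chain fatty acids enter mitochondria as carnitine esters, are shortened in rounds of β-oxidation and leave as acetyl-CoA, from which the ketogenic enzymes make ketone bodies. PPARα, a nuclear receptor that binds fatty acids, pairs with RXR on DNA and drives transcription of many of these genes. In the small intestine the programme is known from absorptive enterocytes and from stem cells, where fasting and dietary fat raise it. In the order of their roles, Ppara encodes the receptor, Cpt1a the carnitine transferase at the mitochondrial entry, Acadl and Acadm the acyl-CoA dehydrogenases for long and medium chains, and Ehhadh a peroxisomal enzyme with hydratase and dehydrogenase activity. Pdk4 encodes a kinase that shuts off pyruvate dehydrogenase, Angptl4 a secreted inhibitor of lipoprotein lipase and Plin2 a coat protein of lipid droplets. None of the 8 encodes an enzyme of ketone body synthesis, and genes of that pathway are described with the wider lists.

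The element that PPAR and RXR bind is a direct repeat with 1 base between its arms, AGGTCANAGGTCA, where N is any base. It was searched on both strands, allowing at most 2 mismatches in the 12 fixed letters, in the promoter windows of RefSeq (GRCm38.p6, 250 bases before to 50 after a gene's start), which held 7 of the 8 members. Plin2 was the one with a match, at position -225 relative to the start on the opposite strand and with 2 mismatches, where 3.86% of all 32851 windows held one. Its window is shown with the match in capitals, beside those of Acadl and Ehhadh, the members whose levels differed most clearly between the replicate numbers. Both have no match, which says only that these letters are not in these windows. The end of the window, which should lie in the gene's transcript, was found there for Plin2 and Ehhadh but not for Acadl. The place of the Acadl window relative to the start is thus less sure. Each is written 5′ to 3′ along the gene, and all 3 lie on the minus strand, at chr4:86670010-86670309, chr1:66863260-66863559 and chr16:21787785-21788084.
Plin2: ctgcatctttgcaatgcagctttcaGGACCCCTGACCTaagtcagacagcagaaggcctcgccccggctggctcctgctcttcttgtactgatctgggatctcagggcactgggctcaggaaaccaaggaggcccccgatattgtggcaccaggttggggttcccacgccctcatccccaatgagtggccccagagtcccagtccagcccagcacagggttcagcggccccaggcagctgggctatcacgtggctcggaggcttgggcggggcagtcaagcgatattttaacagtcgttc
Acadl: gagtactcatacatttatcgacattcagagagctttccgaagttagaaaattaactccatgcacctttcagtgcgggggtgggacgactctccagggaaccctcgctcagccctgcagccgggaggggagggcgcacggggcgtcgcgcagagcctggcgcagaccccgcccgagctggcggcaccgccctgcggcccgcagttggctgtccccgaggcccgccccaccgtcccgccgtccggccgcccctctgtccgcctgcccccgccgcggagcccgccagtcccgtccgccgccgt
Ehhadh: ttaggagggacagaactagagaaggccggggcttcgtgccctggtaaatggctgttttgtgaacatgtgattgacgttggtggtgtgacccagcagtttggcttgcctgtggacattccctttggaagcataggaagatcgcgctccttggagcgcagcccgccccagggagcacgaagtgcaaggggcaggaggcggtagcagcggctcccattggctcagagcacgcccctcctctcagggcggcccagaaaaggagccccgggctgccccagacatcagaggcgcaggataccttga

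The total count per library was 21.87 M to 27.85 M. One ribosomal RNA gene, CT010467.1, took 1.83% to 3.06% of the counts in 7 libraries and 0.313% to 0.619% in the other 11, and the higher share was found in 3 of 4 DMSO vehicle and 1 of 5 UK14304 libraries, and in 1 of 4 HCl vehicle and 2 of 5 norepinephrine libraries. The 6 epithelial markers (Epcam, Cdh1, Vil1, Krt8, Krt18 and Krt20) summed to 5770 to 6400 CPM in every library, where CPM is the counts-per-million value after TMM normalization. Of the cells a crypt culture could carry over, fibroblast markers summed to at most 9.78 CPM, with Dcn at 0 in all libraries, and smooth muscle markers to at most 0.284 CPM. The defining fat cell markers Adipoq and Plin1 reached at most 1 and 2 counts in any library, and Cidec, the third gene of that list, was at 9.91 to 27.5 CPM. The libraries also differed in the slope of log2 CPM, relative to each gene's mean, on GC content. Per 10 percentage points it was 0.0435 to 0.0732 in HCl vehicle. With norepinephrine it was -0.146 to -0.0699, except 0.195 in m4. In DMSO vehicle it was 0.0574 to 0.121, except -0.0384 in m3, and with UK14304 -0.222 to -0.00175, except 0.0605 in m1.

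The members were expressed at very different levels. Per kb of exon, Acadl had the highest level, at 77.6 to 114 CPM in the 18 libraries, and mean levels were 71.2 ± 8.34 CPM for Ehhadh, 37.2 ± 3.74 CPM for Plin2, 36.6 ± 1.45 CPM for Acadm, 28.3 ± 1.74 CPM for Cpt1a, 20.3 ± 0.746 CPM for Ppara, 2.68 ± 0.423 CPM for Angptl4 and 0.762 ± 0.203 CPM for Pdk4 (SD, n = 18). Each neighbour in this order was above the next in 18 of 18 libraries, except for Plin2 and Acadm, where Plin2 was the higher in 9 of 18 (mean log2 ratio 0.019 ± 0.12, SD). The order places the first 6 members among the most abundant genes tested, from the 82.2nd percentile for Ppara to the 97.6th for Acadl, whereas Angptl4 lay at the 39.3rd and Pdk4 at the 22.9th. Pdk4 was counted 31 to 91 times per library and Angptl4 172 to 321 times, against at least 1679 times for each of the other members. Pdk4 and Angptl4 also had the widest errors in the comparisons below, and the part of depth in this was not tested.

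**Figure D1:**
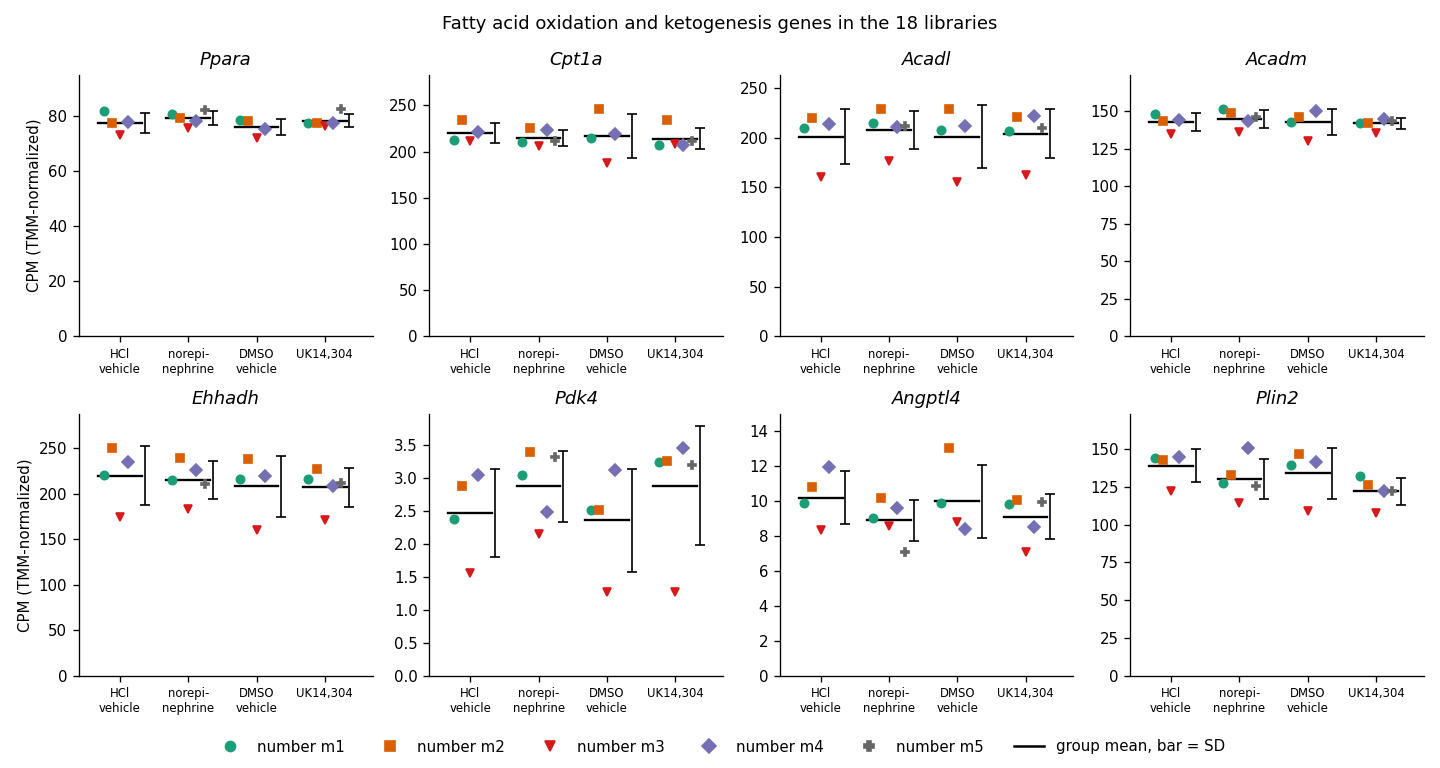
Level of each of the 8 members in the 18 libraries, in CPM on axes that start at 0, with 1 point per library, the marker giving the replicate number, a line for the group mean and a bar for the SD. Agonist and vehicle libraries overlap for every member, and m3 is the lowest library of all 4 groups for Ppara, Acadl, Acadm, Ehhadh, Pdk4 and Plin2.

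To assess whether the agonists changed fatty acid oxidation genes, norepinephrine was compared with HCl vehicle and UK14304 with DMSO vehicle. The test was edgeR's quasi-likelihood F test, with p-values adjusted over all 15247 genes by the Benjamini-Hochberg method. No member passed an adjusted p of 0.05 with either agonist. For norepinephrine 0 of 8 passed, against 0% of all genes tested (0 of 15247), and 0 of 8 had an unadjusted p under 0.05, against 6.18% of all genes. For UK14304 0 of 8 passed, against 0.0394% (6 genes), and 0 of 8 had an unadjusted p under 0.05, against 11.2%. DESeq2 called 0 of 8 members as well with either agonist, and the number of all genes that it called for UK14304 is given with the alternatives below. With the replicate number as a block in the model, 16 genes passed for norepinephrine (0.105%, with 0.0131% higher and 0.0918% lower) and 186 for UK14304 (1.22%, with 0.177% higher and 1.04% lower), and again 0 of 8 members in each. In that fit 0 of 8 members for norepinephrine and 1 of 8 for UK14304, Plin2, had an unadjusted p under 0.05, against 8.4% and 14.8% of all genes. The smallest adjusted p of a member was 0.723 for norepinephrine and 0.537 for UK14304, and 0.606 and 0.224 with the block. The median log2 fold change of the 8 members was -0.003 with norepinephrine and -0.008 with UK14304, where that of all genes was -0.008 and -0.004. In no member were all agonist libraries above or below all vehicle libraries, which was so for 1.42% of all genes with norepinephrine and 3.51% with UK14304.

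**Figure D2:**
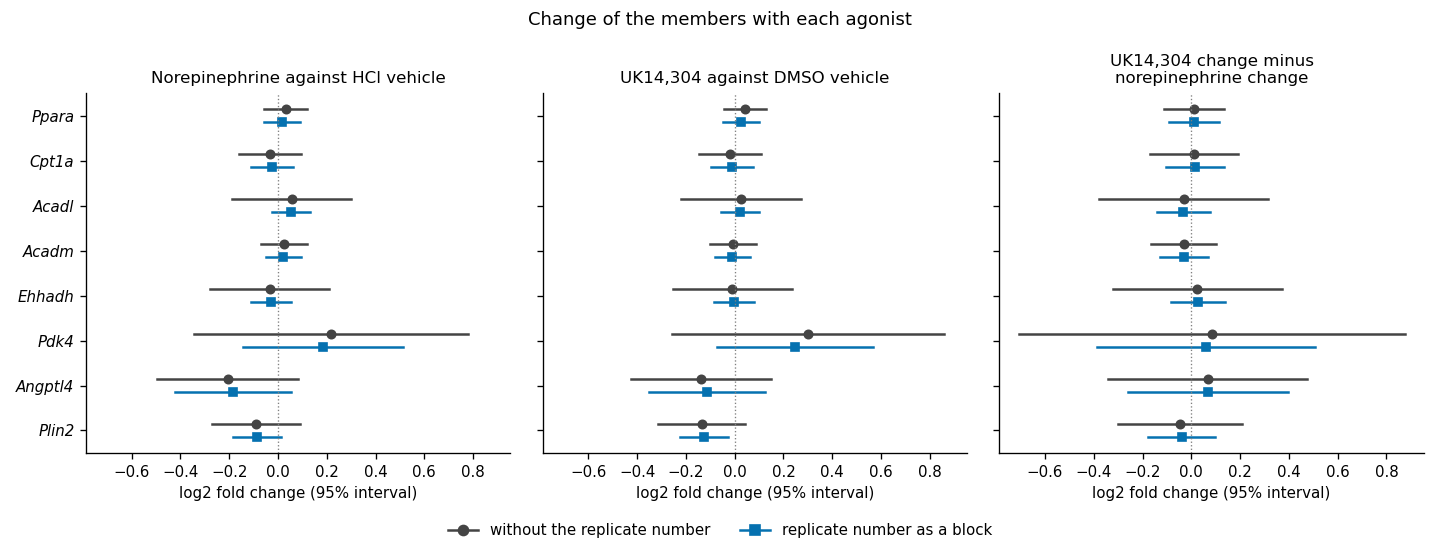
Log2 fold change of each member with its 95% interval, without (circles) and with (squares) the replicate number as a block, for norepinephrine, for UK14304 and for the UK14304 change minus the norepinephrine change. Every interval includes 0 except that of Plin2 with UK14304 in the blocked fit, and Pdk4 has the widest intervals.

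Ppara (ENSMUSG00000022383, GRCm38 chr15:85734983-85802819, plus strand), the receptor gene, was counted at 81.7, 77.7, 73.0 and 77.75 CPM in HCl vehicle and 80.7, 79.2, 75.7, 78.4 and 82.3 CPM with norepinephrine, in the order m1 to m4 and m1 to m5. For the other pair of groups the values were 78.6, 78.4, 72.2 and 75.15 CPM in DMSO vehicle and 77.5, 77.65, 76.45, 77.6 and 82.6 CPM with UK14304. The 18 libraries lay within 1.14-fold of each other, and m3 was the lowest of each group. The log2 fold change was 0.032 ± 0.042 (SE, 95% interval -0.056 to 0.12) with norepinephrine and 0.043 ± 0.042 (SE, 95% interval -0.044 to 0.13) with UK14304.

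Cpt1a (ENSMUSG00000024900, GRCm38 chr19:3322334-3385733, plus strand), whose product controls the entry of long-chain fatty acids into mitochondria, was at 213, 234, 212 and 222 CPM in HCl vehicle and 211, 226, 206, 223.5 and 211 CPM with norepinephrine. In the second comparison it was at 215, 246, 188 and 219 CPM in DMSO vehicle and 208, 234.5, 208, 207 and 212 CPM with UK14304. The m2 library was the highest of each group, and the DMSO vehicle libraries alone spanned the range of all 18. Its log2 fold change was -0.032 ± 0.061 (SE, 95% interval -0.16 to 0.096) for norepinephrine and -0.020 ± 0.061 (SE, 95% interval -0.15 to 0.11) for UK14304.

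Of the dehydrogenases, Acadl (ENSMUSG00000026003, GRCm38 chr1:66830839-66863277, minus strand) had 209, 219, 160 and 214 CPM in HCl vehicle and 215, 228, 177, 210 and 212 CPM with norepinephrine, and 208, 229, 155.5 and 212 CPM in DMSO vehicle and 206.5, 221, 163, 222 and 210 CPM with UK14304. The m3 libraries stood at 155.5 to 177 CPM in the 4 groups, and no other library was under 206 CPM. Against this the agonist changes were small, with a log2 fold change of 0.056 ± 0.12 (SE, 95% interval -0.19 to 0.30) for norepinephrine and 0.024 ± 0.12 (SE, 95% interval -0.22 to 0.27) for UK14304. With the block the intervals narrowed to -0.026 to 0.13 and -0.058 to 0.098. Acadm (ENSMUSG00000062908, GRCm38 chr3:153922357-153944632, minus strand) varied less, with 149, 143, 135 and 144 CPM in HCl vehicle and 152, 149, 136.5, 143 and 146 CPM with norepinephrine, and 143, 146, 130.5 and 150.5 CPM in DMSO vehicle and 143, 142, 136, 145 and 144 CPM with UK14304. The medium-chain enzyme thus spanned 1.16-fold over all libraries where the long-chain enzyme spanned 1.47-fold. Its log2 fold changes were 0.025 ± 0.045 (SE, 95% interval -0.068 to 0.12) and -0.007 ± 0.045 (SE, 95% interval -0.10 to 0.087). A stretch of 152 bases of Acadm is also found at 95.4% identity in the gene Gm45703, and reads from there could have been dropped or counted for either gene.

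Ehhadh (ENSMUSG00000022853, GRCm38 chr16:21761287-21787807, minus strand), the peroxisomal member, followed the profile of Acadl. Its levels were 220, 250, 174.5 and 235 CPM in HCl vehicle and 215, 239, 183, 226 and 210 CPM with norepinephrine, and 217, 238, 160 and 219 CPM in DMSO vehicle and 217, 227, 171, 208.5 and 212 CPM with UK14304. Here too m3 was lowest in each group, and m2 was the highest in each. The log2 fold change was -0.034 ± 0.12 (SE, 95% interval -0.28 to 0.21) for norepinephrine and -0.009 ± 0.12 (SE, 95% interval -0.25 to 0.24) for UK14304, and with the block the intervals were -0.11 to 0.052 and -0.084 to 0.078.

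Pdk4 (ENSMUSG00000019577, GRCm38 chr6:5483351-5496309, minus strand) is a switch from glucose to fatty acid use and a classical PPAR target. It had 2.38, 2.88, 1.565 and 3.05 CPM in HCl vehicle and 3.04, 3.40, 2.16, 2.48 and 3.32 CPM with norepinephrine, and 2.51, 2.51, 1.27 and 3.12 CPM in DMSO vehicle and 3.25, 3.265, 1.28, 3.45 and 3.20 CPM with UK14304. In each group m3 was the lowest, and agonist and vehicle libraries overlapped. The mean was 1.16-fold (95% interval 0.788 to 1.72) that of the vehicle with norepinephrine and 1.23-fold (0.837 to 1.81) with UK14304, the highest fold of the 8 members for each agonist. Neither passed (unadjusted p = 0.426 and 0.272, adjusted p = 0.818 and 0.657). With the block it was 1.14-fold (0.906 to 1.43, adjusted p = 0.686) with norepinephrine and 1.19-fold (0.95 to 1.48, adjusted p = 0.453) with UK14304. Within replicate numbers, UK14304 was above DMSO vehicle in 4 of 4, by log2 differences of 0.36, 0.37, 0.008 and 0.14 in m1 to m4, and norepinephrine was above HCl vehicle in 3 of 4, with -0.29 in m4. Of all genes, 29.5% lay to one side in 4 of 4 with UK14304. Short repeats of Pdk4 (at most 123 bases at 95% identity or more) are shared with 149 other genes.

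Angptl4 (ENSMUSG00000002289, GRCm38 chr17:33773750-33781830, minus strand), which restrains the uptake of lipoprotein fatty acids, was at 9.88, 10.8, 8.35 and 11.95 CPM in HCl vehicle and 9.04, 10.2, 8.56, 9.62 and 7.06 CPM with norepinephrine. Its values were 9.90, 13.0, 8.79 and 8.38 CPM in DMSO vehicle and 9.84, 10.1, 7.10, 8.54 and 9.94 CPM with UK14304. The groups overlapped in both comparisons, and the highest value was that of m2 in DMSO vehicle. The mean was 0.867-fold (0.71 to 1.06) that of the vehicle with norepinephrine and 0.909-fold (0.745 to 1.11) with UK14304, and the unadjusted p-values were 0.155 and 0.33 (adjusted p = 0.723 and 0.702). In 3 of 4 replicate numbers the agonist library was the lower one, for each agonist. Short stretches of Angptl4 (at most 63 bases) are shared with 202 genes, and RefSeq gave no promoter window for it here.

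Plin2 (ENSMUSG00000028494, GRCm38 chr4:86648386-86670060, minus strand), which coats lipid droplets, was the member nearest to a call. It had 144, 143, 122 and 145 CPM in HCl vehicle and 127, 133, 114, 150 and 126 CPM with norepinephrine, and 140, 147, 109 and 141 CPM in DMSO vehicle and 132, 126, 107, 122 and 122 CPM with UK14304. With UK14304 the library was below its DMSO vehicle counterpart in 4 of 4 replicate numbers, by log2 differences of -0.078, -0.22, -0.023 and -0.21, while the groups overlapped through the m3 library of DMSO vehicle, at 109 CPM. Of all genes, 29.5% lay to one side in 4 of 4 numbers with UK14304. The mean was 0.91-fold (95% interval 0.803 to 1.03, unadjusted p = 0.13, adjusted p = 0.537) that of the vehicle, and with the block it was 0.916-fold (0.855 to 0.982, unadjusted p = 0.0157, adjusted p = 0.224). For norepinephrine the mean was 0.939-fold (95% interval of the log2 fold change -0.27 to 0.09, adjusted p = 0.772), and 3 of 4 replicate numbers were lower, with 0.057 in m4. When the 4 libraries of m4 were left out of the blocked fit, the norepinephrine log2 fold change of Plin2 was -0.125 with an adjusted p of 0.0286. In that fit 15.1% of all genes passed for norepinephrine (2300 of 15263) and 3.83% for UK14304, where 0 of 8 members did, and in all other alternatives the adjusted p of this change was at least 0.357. With a term for the libraries rich in CT010467.1 in the blocked fit, the UK14304 change of Plin2 was -0.10 (adjusted p = 0.66). Plin2 shares 259 bases at 96.1% identity with the gene Gm12551.

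Norepinephrine and UK14304 were given at the same dose for the same time, each against its own vehicle, so that the difference between their effects could be tested in the same model. For 8 of 8 members the adjusted p was 1, and 0 of the 15247 genes passed (0%), with 1.51% at an unadjusted p under 0.05 (2.66% with the block) and 0 of 8 members among them in either fit. The UK14304 change minus the norepinephrine change was 0.011 ± 0.059 (SE, 95% interval -0.11 to 0.13) for Ppara, 0.012 ± 0.086 (SE, 95% interval -0.17 to 0.19) for Cpt1a and -0.032 ± 0.064 (SE, 95% interval -0.17 to 0.10) for Acadm, all log2. Without the block these 3 intervals bound the difference most closely. It was -0.031 ± 0.17 (SE, 95% interval -0.38 to 0.32) for Acadl, 0.025 ± 0.17 (SE, 95% interval -0.32 to 0.37) for Ehhadh and -0.046 ± 0.12 (SE, 95% interval -0.30 to 0.21) for Plin2. With the block the intervals were -0.14 to 0.075 for Acadl and -0.085 to 0.138 for Ehhadh, both narrower than that of Cpt1a (-0.104 to 0.133). That of Plin2 was -0.177 to 0.097. The widest intervals without the block were those of Angptl4, 0.067 ± 0.20 (SE, 95% interval -0.34 to 0.48), and Pdk4, 0.083 ± 0.38 (SE, 95% interval -0.71 to 0.87), so that for Pdk4 a difference of either sign within that interval could not be told from none. The HCl and DMSO vehicles themselves differed by log2 values of -0.003 to 0.077 in the 8 members, none of which passed (adjusted p = 1 for each, and 0 of 8 at an unadjusted p under 0.05, against 1.27% of all genes and 1.82% with the block).

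A difference between the replicate numbers was noticed in the values above and then tested on the same data, with an F test of the number terms in the blocked fit over all genes. Of the 8 members 5 passed, where 13.8% of all genes did (2110 of 15247). They were Acadl (adjusted p = 7.35e-07), Ehhadh (1.29e-06), Plin2 (0.00101), Pdk4 (0.00188) and Cpt1a (0.0159), and the others were Acadm (0.0828), Angptl4 (0.146) and Ppara (0.182). In 6 of 8 members m3 was the lowest library of all 4 groups, where this held for 7.26% of all genes (1107). For Cpt1a it was the lowest in 3 and for Angptl4 in 2 of the 4 groups. On average over the groups, the log2 difference of m3 from the mean of m1 to m4 was -0.67 for Pdk4, -0.30 for Acadl, -0.29 for Ehhadh, -0.22 for Angptl4, -0.21 for Plin2, -0.093 for Cpt1a, -0.089 for Acadm and -0.057 for Ppara. With the numbers in the model, the biological coefficient of variation was 4.32% for Acadl, 4.46% for Ehhadh and 9.53% for Pdk4, against 12.3%, 12.3% and 25.5% without them.

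**Figure D3:**
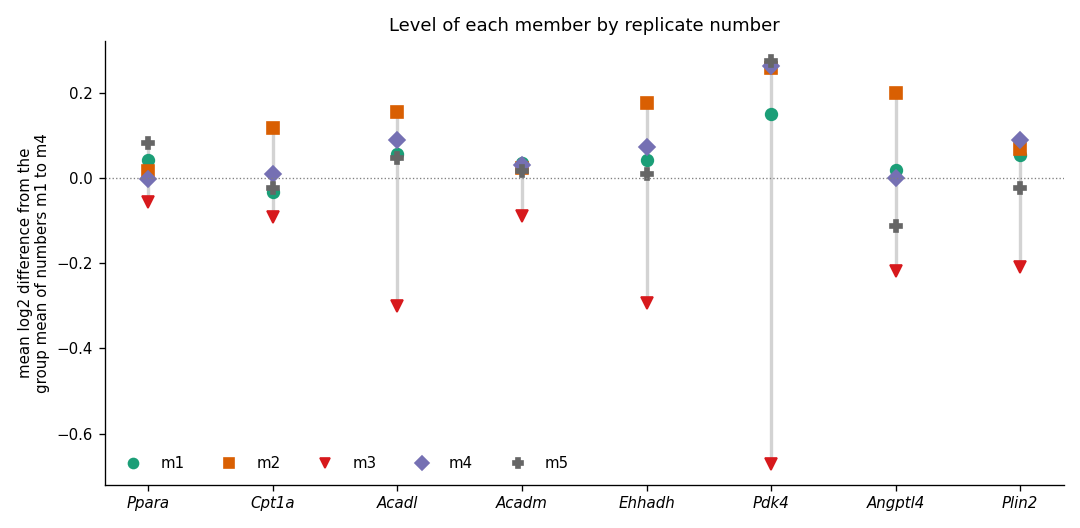
Mean log2 difference of each replicate number from its group's mean of m1 to m4, averaged over the 4 groups (2 groups for m5), for each member. The m3 point is the lowest for all 8 members, from -0.057 for Ppara to -0.67 for Pdk4.

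Cell type markers moved with the same numbers. The 4 enterocyte markers (Alpi, Apoa1, Apoa4 and Fabp1) summed to 6010 to 7060 CPM in the m3 libraries and were lowest there in each group, where the highest libraries of the groups reached 9020 to 10700 CPM. Alpi, the brush border phosphatase of mature enterocytes, was at 789.5, 2088, 415 and 1134 CPM in HCl vehicle and 958, 2131, 386 and 1117 CPM in DMSO vehicle, with m3 lowest and m2 highest. The 6 stem cell markers summed to 5470 to 6840 CPM in m3 and were highest there in each group. Olfm4 made up most of this sum (mean log2 difference of m3 0.33), while Gkn3 and Lgr5 of the same list were below the group mean in m3, by -0.223 and -0.052. The 5 enteroendocrine markers were lowest in m3 in each group, at 336 to 347 CPM. The 5 Paneth cell markers were all above the group mean in m3, by mean log2 differences of 0.143 (Defa17) to 0.787 (Defa22). Of the goblet cell markers, Clca1 and Tff3 were below it (-0.605 and -0.086), and Agr2 and Muc2 were above it (0.063 and 0.038). The part of these cell types in the profile of the members was not tested, and fewer cells of a type cannot be told apart from less RNA per cell in these bulk samples. The 5 Paneth cell markers all had a log2 fold change below 0 with each agonist (medians -0.303 and -0.283), and with the block 2 of them passed for norepinephrine and 3 for UK14304. Of the 4 enterocyte markers 3 were below 0 with norepinephrine and 4 with UK14304 (medians -0.104 and -0.162). None of them passed with the block, where 0 and 2 had an unadjusted p under 0.05 (8.4% and 14.8% of all genes). Of the goblet cell markers Agr2, Muc2 and Tff3, 2 were below 0 with each agonist (medians -0.176 and -0.185), and 1 passed for UK14304 with the block. The part of these cell types in the changes of the members was not tested. With all 4 m3 libraries left out, 0 of 8 members passed for either agonist, without or with the block (0% and 0.0326% of all genes passed for norepinephrine, and 0.0326% and 0.15% for UK14304).

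Around the members, 123 genes of the pathway were listed in 8 groups, of which 107 passed the filter. None had an adjusted p under 0.05 with either agonist, without or with the block. With norepinephrine 32 of the 107 had a log2 fold change above 0 and 74 below, with a median of -0.038, and 6 had an unadjusted p under 0.05, where 6.18% of all genes did. With UK14304 it was 37 above and 70 below, with a median of -0.040, and 12 had an unadjusted p under 0.05, where 11.2% of all genes did. With the block 14 of the 107 had an unadjusted p under 0.05 for norepinephrine and 21 for UK14304, where 8.4% and 14.8% of all genes did. Of all genes, 47.6% and 48.7% were above 0. In the carnitine shuttle and mitochondrial β-oxidation list 18 of 21 genes were below 0 with norepinephrine and 15 of 21 with UK14304, with a median of -0.035 for each. Its largest changes were those of Cpt1b (-0.47 ± 0.28, SE, and -0.35 ± 0.29), the muscle form of Cpt1a at a mean of 0.45 CPM, and of Cpt1c (-0.47 ± 0.44, norepinephrine, at a mean of 0.304 CPM) and Eci1 (-0.13 ± 0.055, UK14304). Of the exon bases of Cpt1b, 81.4% are shared with the gene Gm44502 on the same strand, and reads of several genes were not counted. Among the peroxisomal genes 9 and 10 of 15 were below 0 (medians -0.034 and -0.021). Ech1, an isomerase for unsaturated fatty acids, had -0.15 ± 0.071 and -0.18 ± 0.071, and the next largest were Acox3 with norepinephrine (-0.11 ± 0.067) and Acaa1b with UK14304 (-0.135 ± 0.11).

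Of the 11 ketone body genes 8 and 6 were below 0 (medians -0.060 and -0.001). Aacs, which activates acetoacetate for lipid synthesis, had the largest change with UK14304 (-0.20 ± 0.071, unadjusted p = 0.00986, adjusted p = 0.374), and the transporters Slc5a8 (-0.20 ± 0.43, norepinephrine) and Slc16a7 (-0.18 ± 0.28 and 0.18 ± 0.28) came beside it. The mean levels of these transporters were low, at 6.97 and 2.19 CPM, against 213 CPM for Aacs. Of the PPAR factors and partners 9 of 11 were below 0 with each agonist (medians -0.058 and -0.093), led by Ppard (-0.215 ± 0.092 and -0.195 ± 0.092), which encodes PPARδ, and Esrra (-0.14 ± 0.068 and -0.17 ± 0.067), which encodes a nuclear receptor of mitochondrial genes. In this list 3 and 4 of 11 had an unadjusted p under 0.05 (6.18% and 11.2% of all genes). With the block it was 4 with each agonist (8.4% and 14.8% of all genes).

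The lipid droplet and lipolysis list had the lowest median of the 8 lists with each agonist. All 11 of its tested genes were below 0 with norepinephrine and 10 of 11 with UK14304, with medians of -0.10 and -0.15, and 0 and 2 of them had an unadjusted p under 0.05 (6.18% and 11.2% of all genes). With the block it was 3 and 5 of them (8.4% and 14.8% of all genes). The longest transcripts of these 11 genes had a GC content of 45.7% (Abhd5) to 57.0% (Pnpla2). The part of the GC slopes of the libraries in the changes of this and the other lists was not tested. Mgll, which cleaves monoglycerides and had a low mean level of 2.31 CPM, had -0.35 ± 0.23 and -0.48 ± 0.23 (with the block and UK14304, -0.54 ± 0.14, adjusted p = 0.0759). Cidec, which enlarges droplets, had -0.20 ± 0.23 and -0.31 ± 0.23 at a mean of 18.9 CPM. Plin2 lay on the same side with both agonists. Fatty acid uptake and activation genes were split, with 10 of 15 above 0 for norepinephrine and 7 of 15 for UK14304 (medians 0.035 and -0.009). Cd36, a fatty acid transporter, had 0.34 ± 0.17 and 0.26 ± 0.17, and Fabp6, the ileal bile acid binding protein, had -0.426 ± 0.88 and -0.325 ± 0.81. For the pyruvate dehydrogenase list, 5 of 9 genes were above 0 with each agonist (medians 0.001 and 0.020). Pdk1, another kinase of the complex with 373 CPM on average, had -0.070 ± 0.074 and -0.19 ± 0.074, and with the block its UK14304 change had an unadjusted p of 0.000751 and an adjusted p of 0.0572. Pdp1 (0.12 ± 0.084, norepinephrine) and Pdk2 (-0.099 ± 0.094, UK14304) were the other large ones. Of the other PPAR targets 11 of 14 were below 0 with norepinephrine and 8 of 14 with UK14304 (medians -0.063 and -0.030), with Cyp4a10 (-0.32 ± 0.40 and -0.36 ± 0.40), Acot4 (0.17 ± 0.11, norepinephrine) and Acacb (0.30 ± 0.20, UK14304) as the largest. Their mean levels were 0.739, 58.4 and 6.27 CPM.

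**Figure D4:**
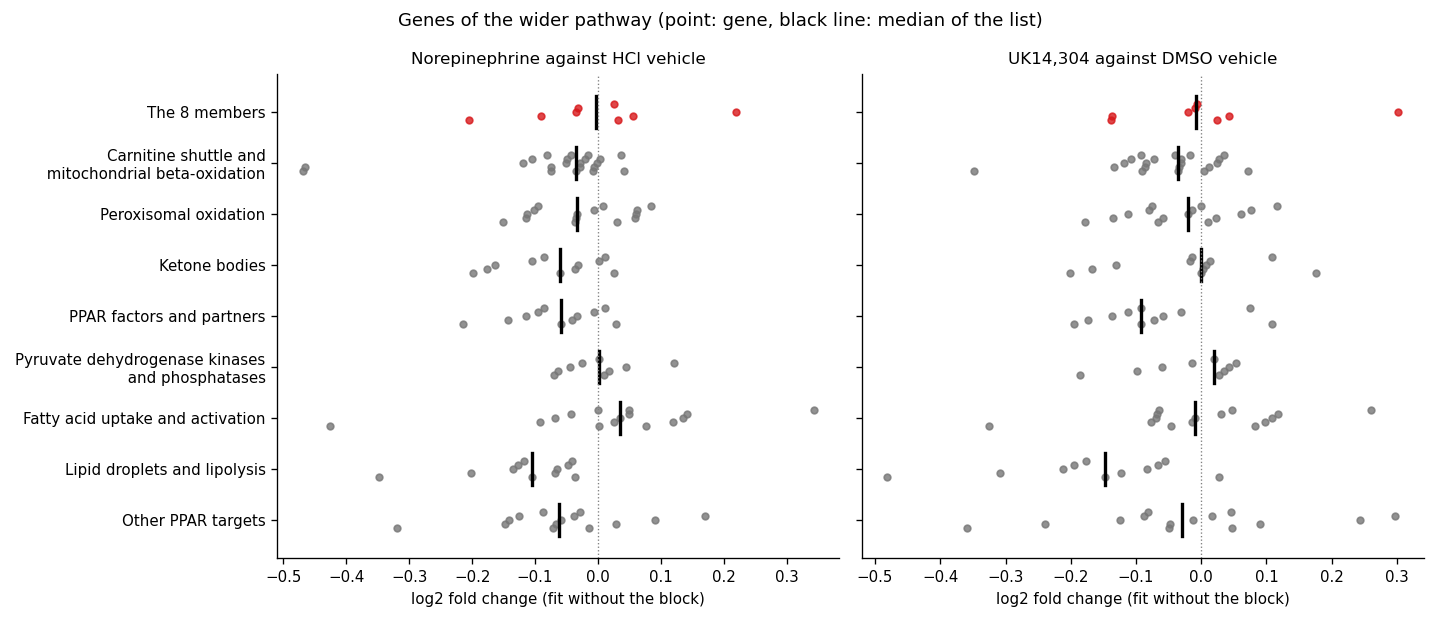
Log2 fold change of the 8 members (red) and of the 107 tested genes of the wider pathway (grey) with norepinephrine and with UK14304, in the fit without the block, with 1 point per gene and a black line at each list's median. No gene passed the adjusted threshold, and the lipid droplet list has the lowest medians, -0.10 and -0.15.

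The number terms reached into the same lists. They passed the F test in 8 of 11 ketone body genes, 9 of 14 other PPAR targets, 8 of 15 uptake and activation genes, 5 of 11 lipid droplet genes, 4 of 9 pyruvate dehydrogenase genes, 6 of 15 peroxisomal genes, 8 of 21 shuttle and β-oxidation genes and 1 of 11 PPAR factors, where 13.8% of all genes passed. That factor was Pparg, with a mean difference of -0.36 in m3 (adjusted p = 8.54e-08), and it is named after its values were seen. The median difference of m3 from the group mean was below 0 in all 8 lists, between -0.043 and -0.15. No such median over all genes is given here, so a general shift of m3 cannot be told apart from one of these lists. Of all genes, 7.26% were lowest in m3 in all 4 groups, against 0.302% in m1, 2.39% in m2 and 0.282% in m4. Other genes went the opposite way, with 603 of 15247 highest in m3 in all 4 groups, against 1107 lowest there.

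Over the 18 libraries, the gene with the profile most like that of a member (Pearson's r of log2 CPM, a description over libraries that share replicate numbers) was Slc4a5 for Acadl (r = 0.98), Gstm7 for Ehhadh (r = 0.98), Pgm1 for Plin2 (r = 0.97), Mttp for Pdk4 (r = 0.95), Kif13b for Cpt1a (r = 0.93), Arhgef18 for Angptl4 (r = 0.89), Dpyd for Acadm (r = 0.89) and Chp2 for Ppara (r = 0.88).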

How the data were processed

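RNA was sequenced as single reads from 18 organoid libraries in 4 groups, with 21.87 M to 27.85 M counts per library. UK14304 is written here without the comma that the labels put into it. The authors aligned reads to GRCm38 with STAR 2.7.3 and counted them per gene with featureCounts (2.0.1 with Ensembl 102 in the file header, Subread 1.6.4 in the methods), without strand and without reads of several genes or places. The deposited values are these raw counts for 55487 genes.

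Genes passing filterByExpr (15247) were fitted in 1 model of 4 groups with edgeR 4.0.16 (TMM, quasi-likelihood F test, R 4.3.3), with Benjamini-Hochberg adjustment over all of them and a threshold of 0.05. Same-numbered libraries deviated together in 4 of 4 pairs of each comparison (correlation of deviations 0.119 to 0.431 for norepinephrine and 0.155 to 0.52 for UK14304). Between the 2 agonist groups, m4 had -0.212 and m5 0.0407. The number was thus also fitted as a block, and the labels do not say what it marks. Alternatives were DESeq2 1.42.0, other scaling and filters, the 2 groups alone, GC content, CT010467.1 share and left-out libraries. The code was tested on simulated data. The members and lists were chosen with earlier results of these data known, and the test of replicate numbers and the fits without m3 after seeing the values. From each list, the 2 genes with the largest change per agonist are named, and 1 gene of the lists is not reported here by name. CPM are TMM-normalized, and promoter letters are from RefSeq. Near copies were searched with blastn 2.17.0 (at least 50 bases at 95% identity).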

Additional observations from a re-analysis of the deposited data

Results flagged for a closer look

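In 6 of the 32 sets of 1 member in 1 group, 1 library lay far from the rest (a gap to its nearest neighbour that was large against the range of the group, which chance gives in about 1 of 20 sets). These sets share libraries and are not independent. In 4 of the 6 the library was m3 and was the lowest. Acadl was at 160 CPM in m3 of HCl vehicle, where the next library had 209 CPM, and at 163 CPM in m3 of UK14304, where the next had 206 CPM. Pdk4 was at 1.28 CPM in m3 of UK14304, where the next had 3.2 CPM. Plin2 was at 122 CPM in m3 of HCl vehicle, where the next had 143 CPM. In the other 2 the library was the highest, Cpt1a at 234 CPM in m2 of UK14304 (next 212 CPM) and Ppara at 82.6 CPM in m5 of UK14304 (next 77.7 CPM).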

How the results depend on the processing

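Of 584 values of the members' changes under alternatives, 517 kept their sign and their side of the threshold, 66 changed sign and 1 passed the threshold (Plin2 with norepinephrine, -0.125, in the blocked fit without m4). The cause was not tested. With the replicate number as a block, 16 genes instead of 0 passed for norepinephrine and 186 instead of 6 for UK14304, and the block changed the call of no member. Added to the block, GC correction gave 31 and 626 genes, the CT010467.1 term 16 and 78, leaving out m4 2300 and 585, leaving out m3 5 and 23, and fitting the 2 groups alone 15 and 525. DESeq2 gave 34 and 272 with the block and 46 for UK14304 without it. UK14304 had 22 genes without the filter on low counts, 1 with the 2 groups alone, and 2 to 7 with 1 library left out (2 without m1 or m4 of DMSO vehicle, 3 without its m2 or m3), where norepinephrine had 0 in each case. The difference between the agonists had 12 genes with the block and no m4, and 1 with DESeq2 and the block.

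These log2 changes turned sign. With the block and GC correction, Cpt1a was 0.006 with norepinephrine and 0.018 with UK14304, and Acadl was -0.022 with UK14304. With the block and the CT010467.1 term, Ehhadh was 0.002 with UK14304, and the difference for Pdk4 was -0.004. With the block and no m4, Cpt1a, Acadm and Ehhadh were 0.008, 0.009 and 0.018 with UK14304, and the differences for Pdk4, Angptl4 and Plin2 were -0.013, -0.04 and 0.017. Without m3, Acadl was -0.008 with UK14304, and the differences for Ppara and Cpt1a were 0 and -0.047, also with the block. Acadm with UK14304 was 0.001 in the 2 groups alone and 0 with the block added. Ehhadh with UK14304 was 0.001 with DESeq2 and the block. Without the filter, the differences for Ppara and Cpt1a were -0.001 each. With 1 library left out, norepinephrine changes ran from -0.049 to 0.006 for Cpt1a, -0.033 to 0.114 for Acadl and -0.125 to 0.038 for Ehhadh. UK14304 changes ran from -0.071 to 0.048 for Cpt1a, -0.069 to 0.097 for Acadl, -0.035 to 0.023 for Acadm, -0.105 to 0.061 for Ehhadh and -0.211 to 0.013 for Angptl4. Differences ran from -0.017 to 0.036 for Ppara, -0.048 to 0.072 for Cpt1a, -0.133 to 0.06 for Acadl, -0.078 to 0.119 for Ehhadh, -0.122 to 0.263 for Pdk4, -0.016 to 0.212 for Angptl4 and -0.129 to 0.007 for Plin2. Pdk4 had the lowest counts of the members, at 31 to 91 per library.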

Other observations

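In m3, where the members were below the group mean, some pathway genes were above it. They are named after their values were seen. Slc5a8 and Slc16a7, transporters that carry ketone bodies among other monocarboxylates, were above the group mean in m3 by mean log2 differences of 0.90 (F test of the replicate numbers, adjusted p = 1.52e-05) and 0.54 (adjusted p = 0.00181). Mgll, the monoglyceride lipase, was above by 0.32 (adjusted p = 0.00349), and Fabp6, the ileal bile acid binding protein, by 1.33 (adjusted p = 0.0366). The other numbers did not all run against the members. Fabp6 was above the group mean in m2 too (0.83) and furthest from it in m1 (-1.74), and Mgll was above it in m4 (0.258). Fabp6 is also near the floor, with 0.0426 CPM in its lowest HCl vehicle library.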
